A study of Homo sapiens with 18 samples.

Results

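A set of 8 genes that work on Ewing sarcoma has reported as repressed by the fusion protein EWS-FLI1 was followed in U2OS, a human osteosarcoma cell line: LOX, TGFBR2, IGFBP3, PHLDA1, CRYAB, THBS1, DKK1 and FOXO1. They were taken by name, 8 of the 35579 genes to which the deposited transcript tables could be assigned. In all, 6 groups of 3 polyA RNA libraries each, labelled as biological replicates, were compared. Untreated cells carried integrated mCherry-EWS-FLI1, mCherry-EWS-FLI1mut, mCherry-EWS(YS37)-FLI1 or mCherry alone, and mCherry-EWS-FLI1 cells were also treated with LY2835219 at 7.5 µM for 6 h or 24 h. LY2835219 is abemaciclib, which blocks CDK4 and CDK6, kinases that drive entry into S phase. All 6 groups thus share the U2OS background and mCherry, and no group is a Ewing sarcoma cell. The labels do not say what EWS-FLI1mut changes, if lines were clonal or pooled, or if a vehicle was given, and the times in their treatment protocol differ from those in the titles and the design, which were used here. P-values therefore cover the spread between libraries of a line and not the spread between independently made lines.

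EWS-FLI1 joins the amino-terminal part of EWS, a disordered transcription-activating region, to the DNA-binding domain of FLI1, a factor of the ETS family that recognises sites with a GGAA core. In Ewing sarcoma the fusion is known to activate genes near GGAA repeats and to lower many others, among them genes of mesenchymal and matrix programs. The 8 genes are known from that second group: TGFBR2 is a receptor, IGFBP3 and DKK1 are secreted antagonists of growth factor and Wnt signals, THBS1 and LOX act in the extracellular matrix, and PHLDA1, CRYAB and FOXO1 act inside the cell.

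The start regions of some members are shown for the GGAA core, which reads TTCC on the other strand. They are the 250 bases before a RefSeq start of the gene on GRCh38.p14, written from 5′ to 3′ on the strand of the gene, with GGAA and TTCC in capitals. LOX (chr5:122078260-122078509, minus strand) and THBS1 (chr15:39580829-39581078, plus strand) are shown as the most alike pair over all 18 libraries, treated ones included. PHLDA1 (chr12:76031777-76032026, minus strand) is shown because its EWS-FLI1 and EWS(YS37)-FLI1 values over mCherry had opposite signs in the fit reported. TGFBR2 (chr3:30606351-30606600, plus strand) is shown because it alone of the members rose by CPM over untreated cells under treatment. RefSeq starts differ from the deposited annotation, by whose spans below the PHLDA1 window lies inside the gene and those of LOX and TGFBR2 overlap its start. The LOX window is the farthest upstream of 3, and that of TGFBR2 the farther downstream of 2.
LOX: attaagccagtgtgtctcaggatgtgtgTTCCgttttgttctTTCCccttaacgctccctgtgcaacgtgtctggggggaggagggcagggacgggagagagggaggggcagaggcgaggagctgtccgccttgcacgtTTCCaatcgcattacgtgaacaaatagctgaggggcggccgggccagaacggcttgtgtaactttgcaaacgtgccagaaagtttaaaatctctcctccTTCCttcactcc
THBS1: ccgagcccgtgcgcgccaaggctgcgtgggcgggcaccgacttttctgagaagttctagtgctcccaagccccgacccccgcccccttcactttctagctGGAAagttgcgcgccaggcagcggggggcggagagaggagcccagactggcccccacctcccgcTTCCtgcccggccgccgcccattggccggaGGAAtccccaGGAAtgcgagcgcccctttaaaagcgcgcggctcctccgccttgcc
PHLDA1: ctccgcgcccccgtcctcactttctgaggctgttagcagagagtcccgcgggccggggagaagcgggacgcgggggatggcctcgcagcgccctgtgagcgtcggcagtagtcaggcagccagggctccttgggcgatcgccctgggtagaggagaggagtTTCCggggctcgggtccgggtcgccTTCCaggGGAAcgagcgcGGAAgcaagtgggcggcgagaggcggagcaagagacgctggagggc
TGFBR2: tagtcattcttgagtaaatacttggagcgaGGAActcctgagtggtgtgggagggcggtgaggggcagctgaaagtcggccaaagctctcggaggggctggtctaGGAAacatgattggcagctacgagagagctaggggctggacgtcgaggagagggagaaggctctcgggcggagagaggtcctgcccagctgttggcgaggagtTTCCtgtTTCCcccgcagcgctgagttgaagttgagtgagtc
Each of these 4 windows held 4 matches to GGAA on either strand, and 92.7% of 35116 promoter windows of the same length held at least 1, with a median of 3. The shown windows held the most among the 10 windows found for 7 members. No window was found for CRYAB, the member that changed most with EWS-FLI1 and at 24 h of LY2835219. The other LOX windows held 3 and 2 matches, the other TGFBR2 window 2, and those of IGFBP3, DKK1 and FOXO1 1 each. The tandem core GGAAGGAA stood in none of the 10 windows, and in 3.06% of all windows. GGAATG, a site of TEAD factors that includes a GGAA, occurred 1 time in the THBS1 window shown and 1 time in that of DKK1, against 11.9% of all windows. TGANTCA, the AP-1 site (6.57% of all windows), and TGTTTAC, a site of FOXO factors (2.98%), were not among the letters of the members' windows. Both strands were searched for each motif. A match is a description of letters and not evidence of binding.

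FLI1 showed which libraries carried a fusion. Its level, in TMM-scaled CPM (a library's counts divided by its scaled total), was 265, 232 and 245 in the EWS-FLI1 libraries, 664, 635 and 627 in EWS-FLI1mut libraries and 1001, 987 and 1069 with EWS(YS37)-FLI1, against 1.16, 0.426 and 0.0534 in mCherry libraries. The constructs therefore differed in FLI1 RNA, which was lower with EWS-FLI1 than with EWS-FLI1mut (log2 fold change -1.38 ± 0.09, SE) or EWS(YS37)-FLI1 (-2.04 ± 0.09). Over all libraries, 99.88% of the FLI1 counts lay on the transcript FLI1-209, which held 99.85% in EWS-FLI1 cells and 19.3% in mCherry cells, where FLI1-201 held 45.7% of few counts. The counts do not separate transgene from endogenous FLI1. Under LY2835219, FLI1 was at 400, 430 and 388 CPM at 6 h (0.72 ± 0.09 over untreated EWS-FLI1 cells, adjusted p = 1.34e-07) and at 244, 241 and 225 CPM at 24 h (-0.07 ± 0.09, adjusted p = 0.569). On the TPM scale the 6 h difference was 0.34, called by limma with a pseudocount of 1 (adjusted p = 0.0112) and not with 0.1 (adjusted p = 0.263). TPM values below use the pseudocount of 1 and no TMM factors. At 6 h over untreated cells that limma fit called 2480 genes higher and 6974 lower, against 5304 and 5586 with TMM.

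Libraries held 16261034 to 20270637 estimated counts. Mitochondrial genes held 4.14% to 4.96% of the counts in untreated groups, and 5.87% to 6.14% at 6 h and 5.71% to 6.41% at 24 h of LY2835219. The TMM factors were between 0.856 and 0.874 at 6 h. Changes under treatment are relative to that scaling: the median of all tested genes on the log2 scale lay at -0.02 for 6 h over untreated cells and 0.05 for 24 h over 6 h with TMM, and at -0.27 and 0.31 with no factors. Of 10 osteoblast lineage markers, 5 averaged under 1 CPM over the 18 libraries, among them SP7, BGLAP and IBSP. The list summed to 4893 to 5022 CPM with EWS-FLI1, 3323 to 3592 with EWS-FLI1mut and 2420 to 2736 with EWS(YS37)-FLI1, against 3461 to 3664 CPM in mCherry cells. Of its 6 tested genes, 4 were higher with EWS-FLI1 (11.1% of all tested genes) and 3 lower with EWS(YS37)-FLI1 (10.2%). In treated EWS-FLI1 cells it summed to 5326 to 6378 CPM at 6 h and 4394 to 5489 CPM at 24 h. All 8 blood cell markers averaged under 1 CPM over the 18 libraries, with CD3E at 0. The 8 epithelial markers, 3 of them averaging under 1 CPM, summed to 813 to 833 CPM with EWS-FLI1, 773 to 796 with EWS-FLI1mut and 762 to 805 with EWS(YS37)-FLI1, against 520 to 574 CPM in mCherry cells. In treated EWS-FLI1 cells they summed to 943 to 995 CPM at 6 h and 431 to 470 CPM at 24 h. The calls were less uniform than the sums. Among the 5 tested epithelial markers, 2 were higher and 0 lower with EWS-FLI1 (11.1% and 9.95% of all tested genes). With EWS-FLI1mut 2 were higher and 1 lower (3.53% and 3.62%, median log2 fold change -0.10). With EWS(YS37)-FLI1 2 were higher and 2 lower (11.5% and 10.2%, median -0.34). The 8 endothelial markers, 2 of them averaging under 1 CPM, summed to 39.6 to 46.3 CPM at 24 h and to between 53.1 and 70.5 CPM in the other groups. The part of these lists and of the mitochondrial share in the results below was not tested.

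IGFBP3 and DKK1 were all but silent and could not be tested. IGFBP3 (ENSG00000146674, chromosome 7, 45912245 to 45921874, minus strand of hg38), a carrier of insulin-like growth factors, held 12 estimated counts over all 18 libraries. They summed to 2 in EWS-FLI1 cells, 1 at 6 h, 4 at 24 h, 0 in EWS-FLI1mut libraries and 2 with EWS(YS37)-FLI1, against 3 in mCherry cells. DKK1 (ENSG00000107984, chromosome 10, 52314296 to 52318042, plus strand of hg38), a secreted inhibitor of Wnt receptors, held 24 counts: 2 in EWS-FLI1 cells, 2 at 6 h, 4 at 24 h, 3 in EWS-FLI1mut libraries and 8 with EWS(YS37)-FLI1, against 5 in mCherry cells. IGFBP3 was at 0 in 12 libraries and DKK1 in 7, and a count of 0 allows up to 3 counts, or 0.148 to 0.184 CPM depending on the library, for counting error only. A repression by the fusion was not detectable for either gene at this depth, since mCherry cells already lay near that limit. The other 6 members passed the filter on low counts and were tested with edgeR's quasi-likelihood test across 16786 genes, with a gene called at an adjusted p under 0.05.

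With EWS-FLI1, 4 of the 6 tested members were higher than in mCherry cells and 0 were lower. Of all tested genes, 11.1% were called higher and 9.95% lower. CRYAB stood apart in size, and TGFBR2, PHLDA1 and THBS1 rose by less. LOX and FOXO1 were not called. The median log2 fold change of the 6 members was 0.36, against -0.02 over all tested genes. On the TPM scale, where transcript lengths are divided out, 2 members were called with limma, both higher.

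**Figure D1:**
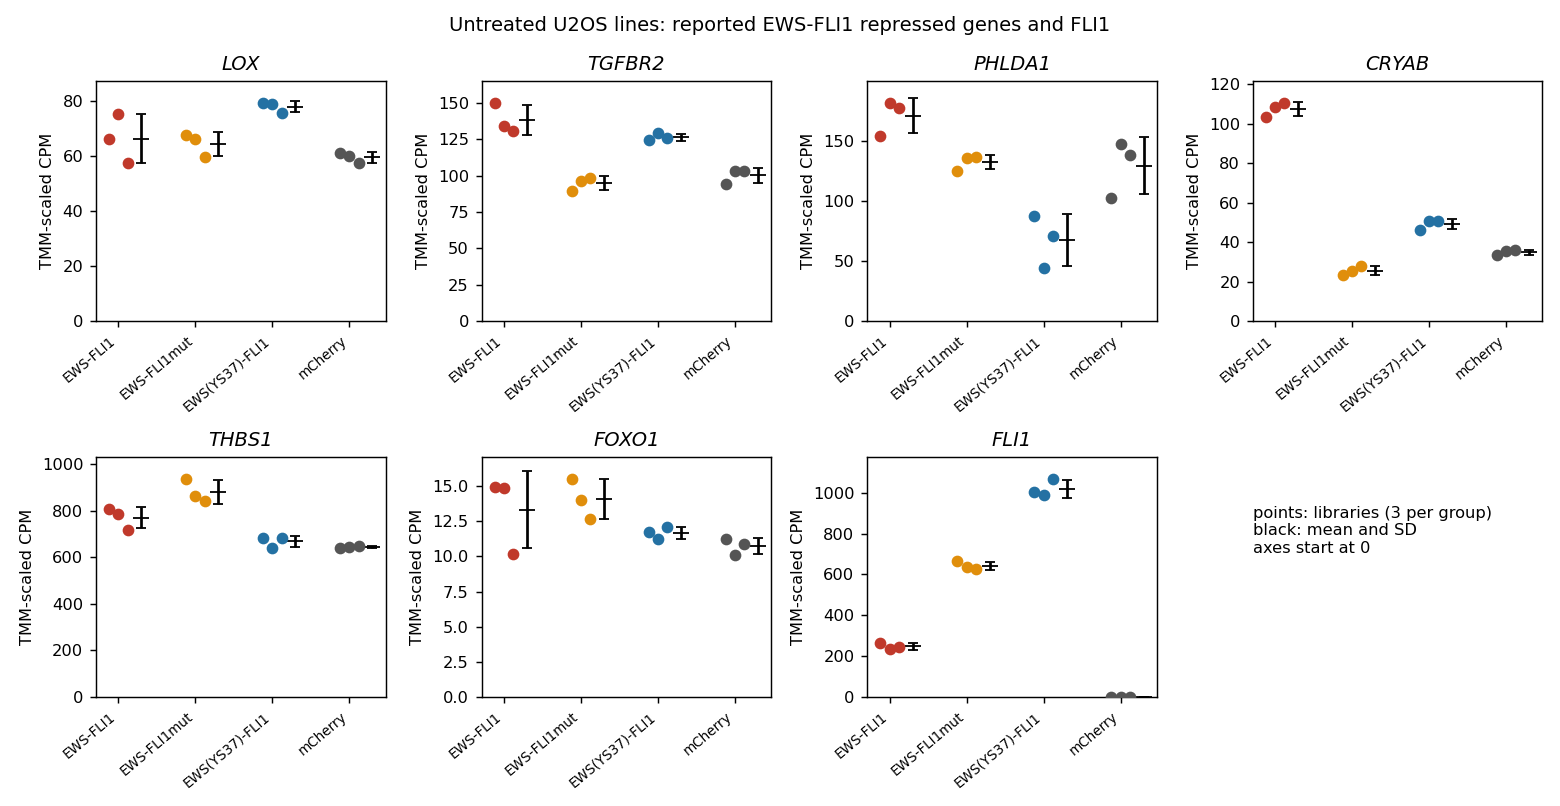
TMM-scaled CPM (vertical axes, from 0) of 6 reported EWS-FLI1 repressed genes and FLI1 in each library of the untreated lines, with the mean and SD of 3 libraries in black. The 3 EWS-FLI1 libraries lie above the 3 mCherry libraries for TGFBR2, PHLDA1, CRYAB and THBS1, and FLI1 is highest with EWS(YS37)-FLI1.

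CRYAB (ENSG00000109846, chromosome 11, 111908565 to 111923722, minus strand of hg38) encodes alpha-B crystallin, a small heat shock protein that keeps damaged proteins from aggregating. It was at 103, 108 and 111 CPM in EWS-FLI1 libraries, 23.3, 25.6 and 28.0 in EWS-FLI1mut libraries and 46.3, 50.7 and 50.6 with EWS(YS37)-FLI1, against 33.5, 35.3 and 36.0 in mCherry libraries. No 2 of these groups overlapped. CRYAB rose with EWS-FLI1 by 1.62 ± 0.08 over mCherry (adjusted p = 1.1e-12) and with EWS(YS37)-FLI1 by 0.49 ± 0.08 (adjusted p = 5.34e-05), and it fell with EWS-FLI1mut by 0.45 on the log2 scale (SE 0.08, adjusted p = 0.00118). The order of CRYAB was thus EWS-FLI1, EWS(YS37)-FLI1, mCherry, EWS-FLI1mut, with each neighbour called different from the next. EWS-FLI1 cells exceeded EWS-FLI1mut cells by 2.07 ± 0.08 and EWS(YS37)-FLI1 cells by 1.12 ± 0.08, although they held the least FLI1 RNA of the 3 constructs.

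Per length, CRYAB was the highest of the 8 members in EWS-FLI1 cells, at 213 ± 4.05 TPM against 67.1 ± 0.323 in mCherry cells (SD, n = 3 each). The transcript CRYAB-205 held 66.9% ± 4.71 of its counts with EWS-FLI1 and 64.3% ± 5.89 in mCherry cells. HSPB2, another small heat shock gene on the opposite strand, shares 626 exonic bases with CRYAB, 20.6% of the exonic bases of CRYAB, and strandedness of the libraries is not given in the sources used here. HSPB2 averaged 1.93 CPM with EWS-FLI1 and 1.07 CPM in mCherry cells, far under CRYAB. Of 6 tested small heat shock genes other than CRYAB, 1 was higher with EWS-FLI1 (HSPB7, 1.48 ± 0.48) and 1 lower (HSPB6, -1.32 ± 0.38), where 11.1% of all tested genes were higher and 9.95% lower. Both rest on few counts over 3 libraries: 74 for HSPB7 with EWS-FLI1 and 25 in mCherry cells, and 47 and 110 for HSPB6.

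TGFBR2 (ENSG00000163513, chromosome 3, 30606502 to 30694142, plus strand of hg38), the type II receptor that binds TGF-beta and activates the type I receptor, was at 150, 134 and 131 CPM in EWS-FLI1 libraries, 89.3, 96.4 and 98.4 in EWS-FLI1mut libraries and 125, 129 and 126 with EWS(YS37)-FLI1. In mCherry libraries it was at 94.5, 103 and 103 CPM. The EWS-FLI1 and EWS(YS37)-FLI1 libraries all lay above those of mCherry, and EWS-FLI1mut libraries overlapped them. TGFBR2 rose by 0.46 ± 0.06 with EWS-FLI1 (adjusted p = 5.12e-06) and by 0.34 ± 0.06 with EWS(YS37)-FLI1 (adjusted p = 0.000188), and it was not called with EWS-FLI1mut (-0.08 ± 0.06, adjusted p = 0.476). EWS-FLI1 cells exceeded EWS-FLI1mut cells by 0.55 ± 0.06 (adjusted p = 6.22e-07), while their difference from EWS(YS37)-FLI1 was not called (0.13 ± 0.06, adjusted p = 0.105), although the libraries did not overlap. That difference was called without EWS-FLI1 replicate 3 (0.18, adjusted p = 0.0412) and, on the TPM scale, without a filter (0.21, adjusted p = 0.0441) but not with it (0.21, adjusted p = 0.0522). Its isoforms TGFBR2-201 and TGFBR2-202 held 72.7% and 27.3% of its counts with EWS-FLI1, and 68.7% and 31.3% in mCherry cells.

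A list of 18 tested genes held other TGF-beta ligands, receptors and SMADs. It also held further genes of the pathway, namely SKI, SKIL, SMURF1, SMURF2, PMEPA1, LTBP1 and BAMBI. With EWS-FLI1 6 of the 18 were higher and 1 lower (11.1% and 9.95% of all tested genes). Their median log2 fold change was 0.12. The ligand TGFB1 was among the rises (0.47 ± 0.08), a gene named after its value was seen, and the inhibitory SMAD6 was the fall (-0.44 ± 0.11). With EWS-FLI1mut 4 of these genes rose and 0 fell (3.53% and 3.62% of all tested genes). For EWS(YS37)-FLI1 the counts were 4 and 5 (11.5% and 10.2%), TGFB3 among the falls (-0.94 ± 0.14).

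PHLDA1 (ENSG00000139289, chromosome 12, 76025447 to 76033932, minus strand of hg38), a pleckstrin homology-like protein that affects cell survival and growth factor signalling, was at 155, 182 and 177 CPM in EWS-FLI1 libraries, 125, 136 and 137 in EWS-FLI1mut libraries and 87.3, 44.2 and 70.6 with EWS(YS37)-FLI1, against 103, 148 and 138 in mCherry libraries. It spread more within mCherry and EWS(YS37)-FLI1 cells than the other 5 tested members did there, with coefficients of variation of 18.4% and 32.3%. All EWS(YS37)-FLI1 libraries lay under the mCherry libraries, and all EWS-FLI1 libraries above them. PHLDA1 fell with EWS(YS37)-FLI1 by 0.94 on the log2 scale (SE 0.15, adjusted p = 5.34e-05) and was not called with EWS-FLI1mut (0.04 ± 0.14, adjusted p = 0.924). The rise with EWS-FLI1 was 0.41 ± 0.14 (adjusted p = 0.047). It was not called without mCherry replicate 1 (0.26, adjusted p = 0.243), without mCherry replicate 3 (0.47, adjusted p = 0.0523), without EWS-FLI1 replicate 2 (0.38, adjusted p = 0.118) or replicate 3 (0.40, adjusted p = 0.0961), nor with DESeq2 (0.41, adjusted p = 0.0978). The rise also lost its call with upper-quartile scaling (0.39, adjusted p = 0.057) and without scaling factors (0.39, adjusted p = 0.053). The same held with transcript length offsets (0.45, adjusted p = 0.0943) and on the TPM scale (0.45, adjusted p = 0.0994). EWS-FLI1 cells exceeded EWS(YS37)-FLI1 cells by 1.35 ± 0.15 (adjusted p = 2.4e-07). PHLDA1-202 and PHLDA1-203 held 78.6% and 17.8% of its counts with EWS-FLI1, 83.0% and 13.2% with EWS(YS37)-FLI1, and 65.0% and 31.8% in mCherry cells.

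The 2 relatives of PHLDA1 were higher with EWS(YS37)-FLI1, where PHLDA1 fell and 11.5% of all tested genes were higher and 10.2% lower. PHLDA2, an imprinted growth-limiting gene, rose with EWS-FLI1 (1.76 ± 0.37, adjusted p = 0.00149) and with EWS(YS37)-FLI1 (1.25 ± 0.38, adjusted p = 0.0195). It rests on few counts over 3 libraries, 396 with EWS-FLI1 and 270 with EWS(YS37)-FLI1, against 109 in mCherry cells. PHLDA3, a p53 target that opposes AKT, rose with EWS(YS37)-FLI1 (0.30 ± 0.07, adjusted p = 0.00472).

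THBS1 (ENSG00000137801, chromosome 15, 39581079 to 39599466, plus strand of hg38) encodes thrombospondin 1, a secreted matrix glycoprotein that binds CD36 and CD47 and can activate latent TGF-beta. It was the most abundant member by CPM, at 808, 786 and 718 in EWS-FLI1 libraries, 939, 863 and 843 in EWS-FLI1mut libraries and 684, 641 and 682 with EWS(YS37)-FLI1, against 642, 645 and 649 in mCherry libraries. EWS-FLI1mut libraries were the highest, EWS-FLI1 libraries came next, and those of EWS(YS37)-FLI1 overlapped those of mCherry. THBS1 rose with EWS-FLI1mut by 0.45 ± 0.05 (adjusted p = 6.54e-06) and with EWS-FLI1 by 0.26 ± 0.05 (adjusted p = 0.000897), and it was not called with EWS(YS37)-FLI1 (0.05 ± 0.05, adjusted p = 0.521). On the TPM scale the value with EWS-FLI1 was 0.16 and not called (adjusted p = 0.326). EWS-FLI1 cells were lower than EWS-FLI1mut cells (-0.19 ± 0.05, adjusted p = 0.011), a call lost without EWS-FLI1 replicate 3 (-0.12, adjusted p = 0.132) or EWS-FLI1mut replicate 1 (-0.13, adjusted p = 0.136). That difference was -0.38 on the TPM scale (adjusted p = 0.0197). They were higher than EWS(YS37)-FLI1 cells (0.20 ± 0.05, adjusted p = 0.00386), though not on the TPM scale (0.08, adjusted p = 0.641). The list of other thrombospondins and their receptors had 0 rises and 0 falls among 5 tested genes with EWS-FLI1, where 11.1% of all tested genes rose and 9.95% fell.

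LOX (ENSG00000113083, chromosome 5, 122063195 to 122078360, minus strand of hg38), the lysyl oxidase that cross-links collagen and elastin, was at 66.1, 75.4 and 57.7 CPM in EWS-FLI1 libraries, 67.6, 66.3 and 59.7 in EWS-FLI1mut libraries and 79.4, 79.0 and 75.7 with EWS(YS37)-FLI1, against 61.3, 60.1 and 57.5 in mCherry libraries. EWS(YS37)-FLI1 libraries lay above all others, and the other 3 groups overlapped. LOX rose with EWS(YS37)-FLI1 by 0.39 ± 0.08 (adjusted p = 0.00076) and was called neither with EWS-FLI1 (0.16 ± 0.08, adjusted p = 0.173) nor with EWS-FLI1mut (0.11 ± 0.08, adjusted p = 0.452). Without EWS-FLI1 replicate 3, its value with EWS-FLI1 was called (0.26, adjusted p = 0.0197). EWS-FLI1 cells were lower than EWS(YS37)-FLI1 cells (-0.23 ± 0.08, adjusted p = 0.0247), a call lost without EWS-FLI1 replicate 3 (-0.13, adjusted p = 0.25), without EWS-FLI1 replicate 1 (-0.23, adjusted p = 0.0645) or without EWS(YS37)-FLI1 replicate 1 (-0.21, adjusted p = 0.0923) or replicate 2 (-0.20, adjusted p = 0.0923), and on the TPM scale (-0.24, adjusted p = 0.0734). SRFBP1 on the opposite strand shares 138 exonic bases with LOX, 2.49% of the exonic bases of LOX. Of the other 4 lysyl oxidases, 2 rose with EWS-FLI1 (LOXL1, 1.06 ± 0.08, and LOXL4, 0.38 ± 0.07) and LOXL3 fell (-0.43 ± 0.12), where 11.1% of all tested genes rose and 9.95% fell. With EWS(YS37)-FLI1, LOXL2 (0.19 ± 0.06) and LOXL3 (0.33 ± 0.11) rose, although the mean TPM of LOXL3 was 19.4 there and 20.3 in mCherry cells.

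FOXO1 (ENSG00000150907, chromosome 13, 40469953 to 40666597, minus strand of hg38) is a forkhead transcription factor held in the cytoplasm by insulin and AKT signalling. It was the least abundant of the tested members, at 15.0, 14.9 and 10.2 CPM in EWS-FLI1 libraries, 15.6, 14.0 and 12.7 in EWS-FLI1mut libraries and 11.7, 11.2 and 12.1 with EWS(YS37)-FLI1, against 11.2, 10.1 and 10.9 in mCherry libraries. EWS-FLI1mut libraries lay above those of mCherry, and the other 2 constructs overlapped them. FOXO1 was called with none of the constructs: 0.31 ± 0.14 with EWS-FLI1 (adjusted p = 0.118), 0.39 ± 0.14 with EWS-FLI1mut (adjusted p = 0.092) and 0.12 ± 0.14 with EWS(YS37)-FLI1 (adjusted p = 0.596). Without EWS-FLI1 replicate 3, the lowest of its group, the value with EWS-FLI1 was 0.49 and called (adjusted p = 0.00987). On the TPM scale the signs against mCherry turned, and mCherry replicate 3 held 7.41 TPM of FOXO1. Of these, 4.56 TPM came from 2 counts on FOXO1-202, a transcript of 178 bases with an effective length of 28.6. Its part in the change of sign was not tested.

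Genes that FOXO factors are known to switch on, listed with the other FOXO genes, rose with EWS-FLI1 in 11 of 14 tested and fell in 0, with a median of 0.37. The largest was TXNIP, an inhibitor of thioredoxin and glucose uptake (1.27 ± 0.18), and KLF6 (0.47 ± 0.10), CITED2 (0.33 ± 0.08) and GADD45A (0.24 ± 0.08) were among them. Of all tested genes, 11.1% rose and 9.95% fell with EWS-FLI1. With EWS-FLI1mut 4 of the list rose and 0 fell (3.53% and 3.62% of all tested genes), and with EWS(YS37)-FLI1 3 rose and 4 fell (11.5% and 10.2%). GADD45A, which acts in growth arrest, rose by 1.08 ± 0.07 with EWS(YS37)-FLI1, and TXNIP was not called there (-0.17 ± 0.19).

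**Figure D2:**
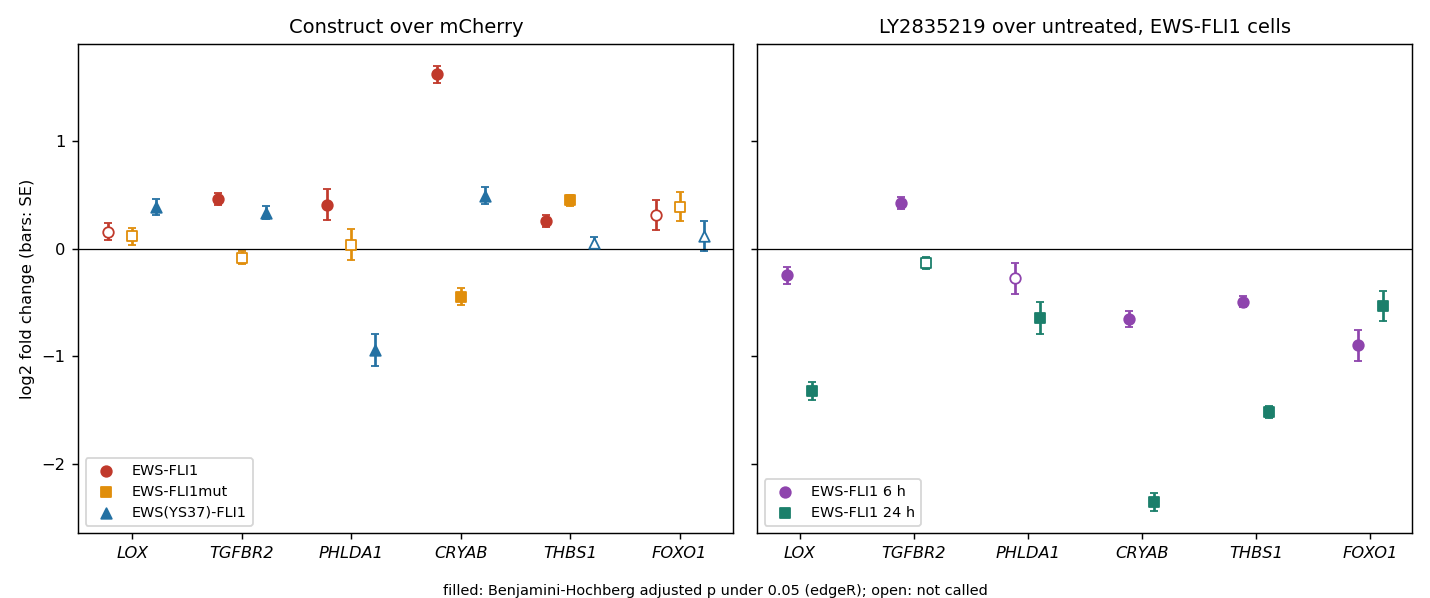
Log2 fold change with its SE (vertical axis) of 6 members for each construct over mCherry cells (left) and for 6 h and 24 h of LY2835219 over untreated EWS-FLI1 cells (right); filled symbols passed an adjusted p of 0.05. CRYAB with EWS-FLI1 is the highest point (1.62) and CRYAB at 24 h the lowest (-2.36).

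Set side by side, the other 2 constructs called fewer or other members than EWS-FLI1. With EWS-FLI1mut, 2 of 6 were called (THBS1 higher, CRYAB lower), where 3.53% of all tested genes were called higher and 3.62% lower, and the median of the members was 0.07 against 0 over all genes. With EWS(YS37)-FLI1, 4 of 6 were called (LOX, TGFBR2 and CRYAB higher, PHLDA1 lower) where 11.5% of all tested genes were called higher and 10.2% lower, with a median of 0.23 against -0.003. These comparisons share the mCherry libraries. Set directly against each other, EWS-FLI1 cells were higher than EWS-FLI1mut cells in TGFBR2 and CRYAB and lower in THBS1, 3 of 6, where 8.78% of all genes were higher and 7.51% lower. Against EWS(YS37)-FLI1 cells, EWS-FLI1 cells were higher in PHLDA1, CRYAB and THBS1 and lower in LOX, 4 of 6, where 14.8% of all genes were higher and 16.3% lower. Between EWS(YS37)-FLI1 and EWS-FLI1mut cells, 5 of 6 were called, where 14.5% of all genes were higher and 12.7% lower. LOX (0.27 ± 0.08), TGFBR2 (0.42 ± 0.06) and CRYAB (0.94 ± 0.08) were higher with EWS(YS37)-FLI1, and PHLDA1 (-0.98 ± 0.15) and THBS1 (-0.40 ± 0.05) lower. The call of LOX was lost there on the TPM scale (0.17, adjusted p = 0.217) and without EWS-FLI1mut replicate 3 (0.22, adjusted p = 0.0703). FLI1 RNA ran from EWS(YS37)-FLI1 over EWS-FLI1mut and EWS-FLI1 down to mCherry, and the mean CPM of none of the 6 members ran in that order or its reverse. The mean TPM of LOX did run in it, at 47.2 with EWS(YS37)-FLI1, 41.8 with EWS-FLI1mut, 39.96 with EWS-FLI1 and 35.9 in mCherry cells, with EWS-FLI1 and EWS-FLI1mut not called different (-0.07, adjusted p = 0.701).

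Repressors and corepressors that have been reported to act with or downstream of EWS-FLI1 formed a list of 15 tested genes. With EWS-FLI1 3 rose and 1 fell (11.1% and 9.95% of all tested genes), with EWS-FLI1mut 3 rose and 0 fell (3.53% and 3.62%), and with EWS(YS37)-FLI1 3 rose and 2 fell (11.5% and 10.2%). TLE1, a Groucho corepressor, rose with each construct (0.29 ± 0.08, 0.37 ± 0.08 and 0.34 ± 0.08 in that order), and EZH2, the histone H3 methyltransferase of Polycomb, fell with EWS-FLI1 (-0.35 ± 0.09). NKX2-2 and NR0B1, repressors that EWS-FLI1 is known to induce in Ewing sarcoma and that are named here after their values were seen, were called with none of the constructs. NKX2-2 averaged 8.73 CPM in EWS-FLI1 cells, 9.44 with EWS-FLI1mut, 8.81 with EWS(YS37)-FLI1 and 7.21 in mCherry cells. NR0B1 averaged 1.38, 0.829, 1.18 and 1.49 CPM in the same 4 groups.

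Other genes of the pathways of IGFBP3 and DKK1 were expressed. The IGF axis had 15 tested genes, of which 3 rose and 3 fell with EWS-FLI1, where 11.1% of all tested genes rose and 9.95% fell. STC1, a secreted stanniocalcin, fell (-1.52 ± 0.21), as it did with EWS(YS37)-FLI1 (-1.90 ± 0.21). IGFBP7, a low-affinity binding protein named after its value was seen, rose with EWS-FLI1 (1.89 ± 0.12). Wnt antagonists and feedback genes had 3 rises and 2 falls among 17 tested with EWS-FLI1. The counts were 4 and 0 with EWS-FLI1mut (3.53% and 3.62% of all tested genes), and 1 and 5 with EWS(YS37)-FLI1 (11.5% and 10.2%). Among the last, RNF43, which removes Wnt receptors from the membrane, fell by 0.97 on the log2 scale (SE 0.17) and TCF7, a nuclear Wnt factor, by 1.84 (SE 0.60).

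Most members were lower in EWS-FLI1 cells treated with LY2835219. At 24 h, 5 of the 6 tested were lower than in untreated EWS-FLI1 cells and 0 higher, where 24.6% of all tested genes were lower and 23.3% higher. The median log2 fold change of the members was -0.98, against 0.03 over all genes. At 6 h, 4 were lower and TGFBR2 was higher, against 33.3% lower and 31.6% higher over all genes, and the medians were -0.38 and -0.02. Only EWS-FLI1 cells were treated, so an effect of the drug on these genes without the fusion was not measured. In bulk RNA, fewer cells with a transcript and less of it per cell cannot be told apart.

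**Figure D3:**
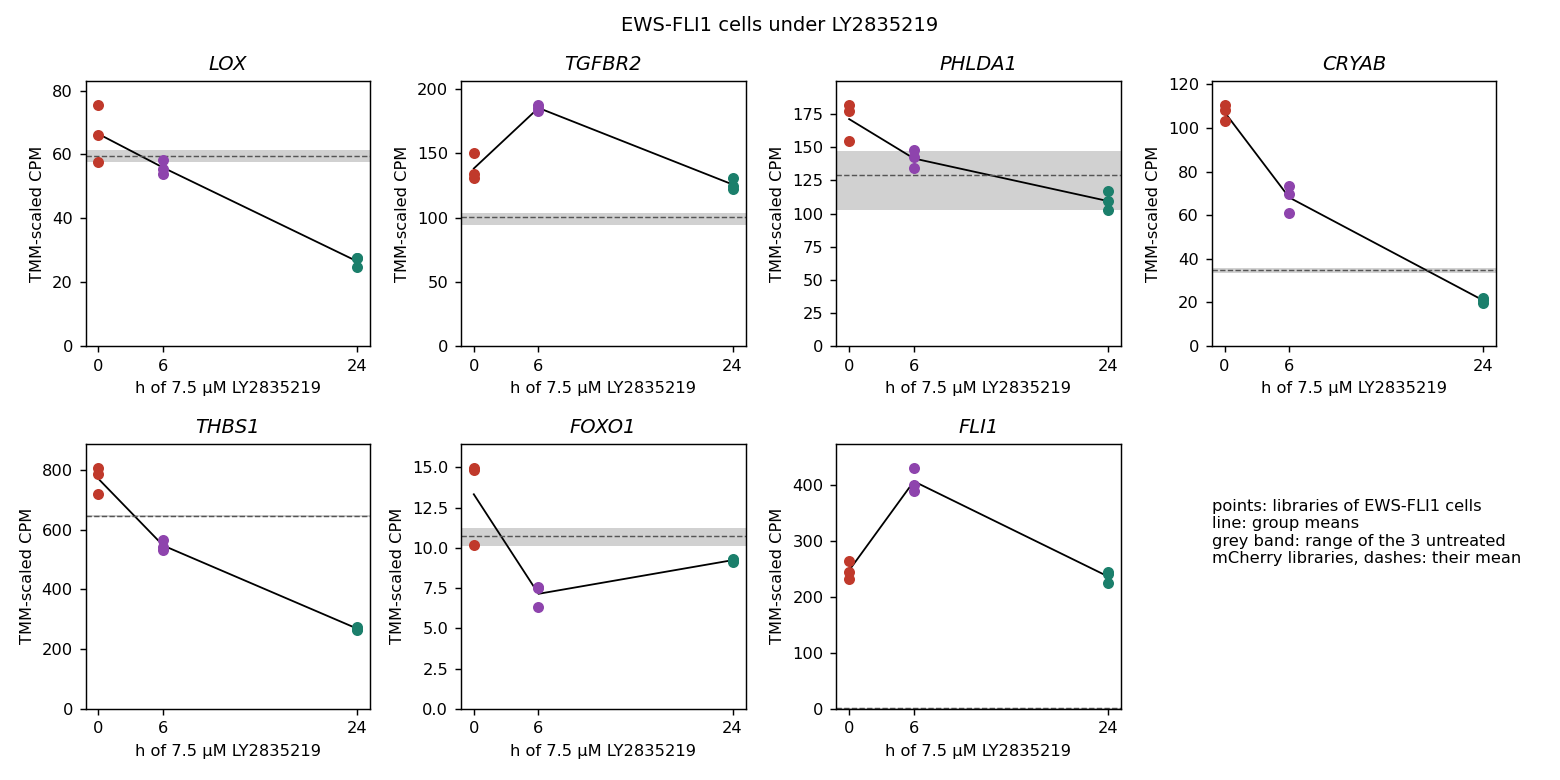
TMM-scaled CPM (vertical axes, from 0) of 6 members and FLI1 in EWS-FLI1 cells at 0, 6 and 24 h of 7.5 µM LY2835219 (points are libraries, lines join means), with the range and mean of the untreated mCherry libraries as a grey band and dashes. LOX, CRYAB, THBS1 and FOXO1 end at 24 h below the band, and TGFBR2 and FLI1 peak at 6 h.

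CRYAB lost the most. It was at 103, 108 and 111 CPM without treatment, 61.1, 73.5 and 69.9 at 6 h and 21.0, 22.2 and 19.6 at 24 h, with no overlap between times. The fall was 0.66 on the log2 scale at 6 h (SE 0.07, adjusted p = 4.05e-08) and 2.36 at 24 h (SE 0.08, adjusted p = 1.92e-16). THBS1 was at 532, 567 and 543 CPM at 6 h and 275, 268 and 263 at 24 h. It fell by 0.49 on the log2 scale at 6 h (SE 0.05, adjusted p = 1.28e-08) and by 1.52 at 24 h (SE 0.05, adjusted p = 2.95e-16). LOX was at 53.8, 55.5 and 58.3 CPM at 6 h and 27.4, 27.5 and 24.7 at 24 h. Its 6 h libraries overlapped those of untreated cells (-0.25 ± 0.08, adjusted p = 0.00824), and the 6 h call was lost without EWS-FLI1 replicate 2 (-0.17, adjusted p = 0.0727). At 24 h LOX had fallen by 1.32 on the log2 scale (SE 0.08, adjusted p = 4.46e-12). The 6 h falls were larger on the TPM scale, -0.99 for CRYAB (adjusted p = 2.49e-09), -0.78 for THBS1 (adjusted p = 2.46e-06) and -0.64 for LOX (adjusted p = 1.41e-05). That fit has no TMM factors and called 6974 of all genes lower at 6 h and 2480 higher. For these 3 genes and FOXO1, each library at 24 h lay below each untreated mCherry library, a pair of groups that was not tested.

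PHLDA1 and FOXO1 fell by less. PHLDA1 was at 148, 143 and 134 CPM at 6 h and 102, 117 and 109 at 24 h, all below the untreated EWS-FLI1 libraries. It was called at 24 h (-0.65 ± 0.14, adjusted p = 0.000697) and not at 6 h (-0.27 ± 0.14, adjusted p = 0.0986). With upper-quartile scaling the 6 h value was called (-0.34, adjusted p = 0.0422), and likewise without scaling factors (-0.52, adjusted p = 0.0026) and on the TPM scale (-0.64, adjusted p = 0.00322). FOXO1 was at 7.52, 7.58 and 6.33 CPM at 6 h and 9.13, 9.24 and 9.33 at 24 h, and was the tested member with its lowest level at 6 h (-0.90 ± 0.14, adjusted p = 7.29e-06, and -0.53 ± 0.14 at 24 h, adjusted p = 0.00293). On the TPM scale its 24 h value was -0.42 and not called (adjusted p = 0.235).

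TGFBR2 went the other way at 6 h, to 188, 186 and 183 CPM, above all untreated EWS-FLI1 libraries (0.42 ± 0.06, adjusted p = 8.56e-07), and lay at 125, 131 and 122 CPM at 24 h (-0.14 ± 0.06, adjusted p = 0.059). The 6 h rise was not seen on the TPM scale, where transcript lengths are divided out and no TMM factors are used. TGFBR2 averaged 42.2 ± 0.702 TPM at 6 h and 41.0 ± 4.25 TPM in untreated cells (SD, n = 3 each, 0.04 on the log2(TPM + 1) scale, limma adjusted p = 0.615). The call was kept in edgeR with transcript length offsets and TMM factors, where 1 member was higher at 6 h and 4 lower. It was also kept in edgeR without scaling factors, where 1 member was higher at 6 h and 5 lower. The 24 h value was called on the TPM scale (-0.22, adjusted p = 0.0233), with DESeq2 (-0.15, adjusted p = 0.0312) and without EWS-FLI1 replicate 2 (-0.18, adjusted p = 0.0309), EWS-FLI1 replicate 3 (-0.20, adjusted p = 0.0142) or 24 h replicate 2 (-0.19, adjusted p = 0.0217). The isoform TGFBR2-202 held 27.3% ± 1.34 of the counts in untreated cells, 23.1% ± 2.17 at 6 h and 36.2% ± 4.53 at 24 h (SD, n = 3 each).

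From 6 h to 24 h, 5 members were lower and FOXO1 was higher (0.37 ± 0.15, adjusted p = 0.0311), where 30.3% of all genes were lower and 32.6% higher. CRYAB fell by a further 1.70 on the log2 scale (SE 0.08), LOX by 1.08 (SE 0.08), THBS1 by 1.03 (SE 0.05) and TGFBR2 by 0.56 (SE 0.06). TPM, without TMM factors, gave smaller values for THBS1 (-0.63, adjusted p = 3.14e-05) and TGFBR2 (-0.27, adjusted p = 0.00489). That fit called 6255 of all genes higher and 2619 lower. The calls of PHLDA1 (-0.37 ± 0.15, adjusted p = 0.03) and FOXO1 in this comparison were lost with DESeq2 (adjusted p = 0.0598 for PHLDA1 and 0.0735 for FOXO1) and on the TPM scale (-0.08, adjusted p = 0.698 for PHLDA1 and 0.36, adjusted p = 0.262 for FOXO1). Without scaling factors PHLDA1 was at -0.11 (adjusted p = 0.504). PHLDA1 was not called without 6 h replicate 1 (adjusted p = 0.079) or 2 (adjusted p = 0.0595), or without 24 h replicate 1 (adjusted p = 0.102) or 3 (adjusted p = 0.0644). FOXO1 was not called without 6 h replicate 3 (adjusted p = 0.137) or without 24 h replicate 1 (adjusted p = 0.0531), 2 (adjusted p = 0.0646) or 3 (adjusted p = 0.0622).

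Relatives of LOX and TGFBR2 were also lower at 24 h. All 4 LOX-like genes fell at 24 h, LOXL4 by 1.26 on the log2 scale (SE 0.07), LOXL3 by 1.00 (SE 0.12), LOXL1 by 0.96 (SE 0.08) and LOXL2 by 0.61 (SE 0.07), although LOXL1 and LOXL2 were called higher at 6 h by CPM (0.39 ± 0.07 and 0.18 ± 0.06). Their mean TPM, which has no TMM factors, was not higher: LOXL1 had 211 at 6 h and 216 in untreated cells, and LOXL2 89.1 and 98.5 in the same order. Of the 18 TGF-beta genes, 14 fell and 1 rose at 24 h, where 24.6% of all tested genes fell and 23.3% rose. At 6 h 7 fell and 6 rose, near the shares of all tested genes (33.3% and 31.6%). The deepest falls were at 6 h: SMAD6 (-3.99 ± 0.17), the decoy receptor BAMBI (-2.50 ± 0.22), the co-receptor TGFBR3 (-2.29 ± 0.26) and the ligand TGFB3 (-2.11 ± 0.15). At 24 h BAMBI stood at -1.25 ± 0.19, SMAD6 at -0.83 ± 0.12 and TGFB3 at -0.45 ± 0.13, and TGFBR3 was not called (-0.14 ± 0.22).

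The list counts that follow stand beside shares of all tested genes of 24.6% lower and 23.3% higher at 24 h, and 33.3% and 31.6% at 6 h. Of 5 thrombospondin relatives and receptors, 2 rose and 0 fell at 24 h, where THBS1 fell: the receptor CD47 (0.55 ± 0.09) and THBS3 (0.42 ± 0.14). Of the small heat shock genes, HSPB8 rose at 6 h (1.47 ± 0.09) and 24 h (0.54 ± 0.10), and HSPB2 fell at both times (-1.88 ± 0.44 and -1.08 ± 0.41). HSPB2 held few counts, 110 over 3 untreated libraries, 25 at 6 h and 51 at 24 h. PHLDA2 fell by 2.83 on the log2 scale at 24 h (SE 0.41), while PHLDA3 rose at 6 h (0.91 ± 0.07) and 24 h (1.09 ± 0.07). FOXO factors and targets divided at 24 h, 6 up and 6 down of 14, with TXNIP (1.99 ± 0.17) and GADD45A (1.62 ± 0.07) up and CITED2 down (-0.71 ± 0.09). At 6 h 5 rose and 8 fell. In the IGF axis 8 of 15 fell and 2 rose at 24 h, and at 6 h 6 fell and 3 rose, with the insulin receptor INSR (-2.72 ± 0.19) among the falls. STC2, also called lower, held 1 count over the 3 libraries at 6 h and 28 in untreated cells, too few for a fold change. Wnt antagonists and feedback genes fell in 9 of 17 and rose in 2 at 24 h. Of the 15 repressors and corepressors, 9 fell at 6 h and 9 at 24 h, with TLE3 (-1.03 ± 0.07) and EZH2 (-0.82 ± 0.10) among them at 6 h, and 2 and 1 rose.

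**Figure D4:**
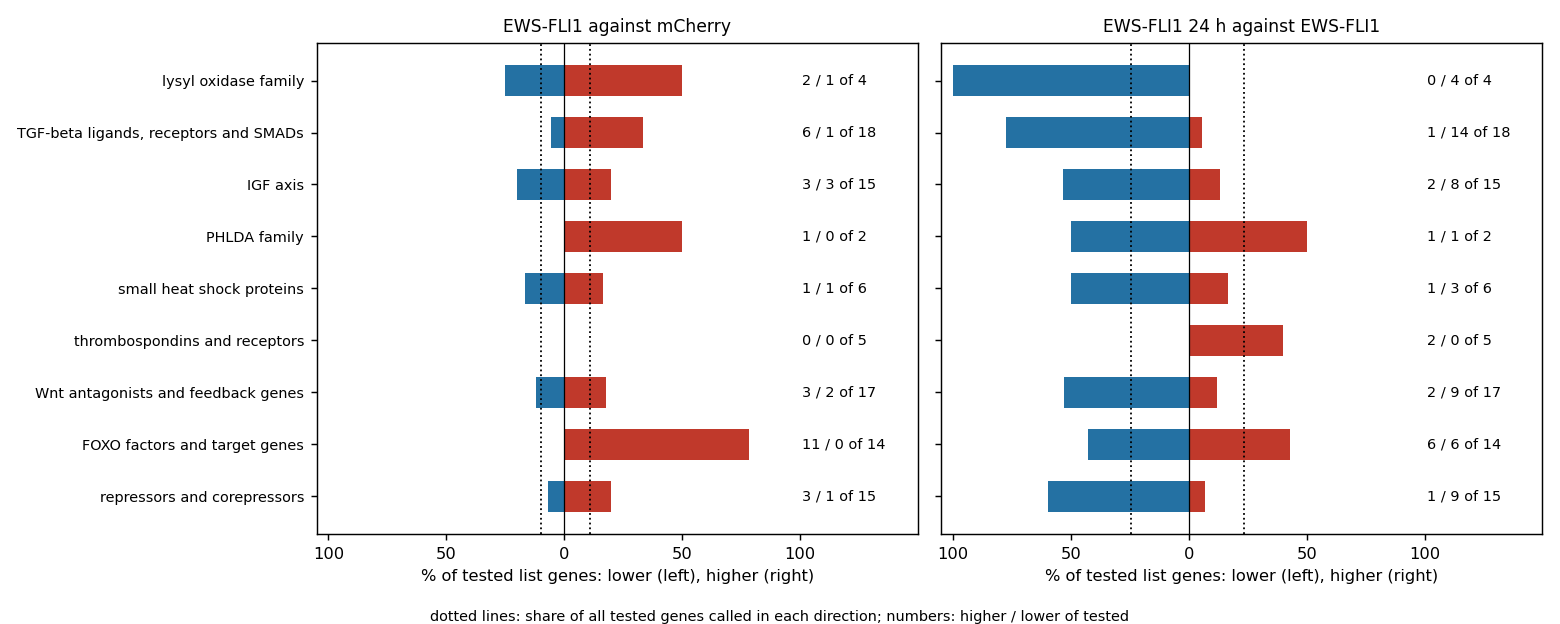
Share of the tested genes of each related list (percent, horizontal axes) called higher (red, right) or lower (blue, left) with EWS-FLI1 over mCherry cells and at 24 h of LY2835219 over untreated EWS-FLI1 cells, with dotted lines for the share among all tested genes. The FOXO list has 11 of 14 higher with EWS-FLI1, and the lysyl oxidase and TGF-beta lists have 4 of 4 and 14 of 18 lower at 24 h.

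Over the 18 libraries the members did not move as a block. LOX and THBS1 were most alike (Pearson r of log2 CPM 0.92), and TGFBR2 and FOXO1 least (-0.65), with 15 pairs computed. These libraries share 6 groups, so the correlations describe group differences and the time course together and carry no test. Among 11443 protein-coding genes averaging at least 5 CPM, the profiles nearest to LOX were those of P3H2, a collagen prolyl hydroxylase (r = 0.98), PTBP1, a splicing factor (0.98), and TUBGCP3 (0.98). GLIPR1 (0.98), the smooth muscle actin-binding gene TAGLN (0.97) and ZFAND3 (0.95) were nearest to TGFBR2. For PHLDA1 the nearest were the collagenase MMP13 (0.94), PODNL1 (0.93) and LMCD1 (0.92), and for CRYAB the phosphatidate phosphatase LPIN1 (0.94), the TEAD cofactor VGLL3 (0.94) and the chaperone DNAJB6 (0.93). HR (0.97), HNRNPUL1 (0.97) and the integrin ITGB5 (0.96) were nearest to THBS1, and the kinase MAP3K1 (0.94), the protocadherin DCHS1 (0.93) and the forkhead factor FOXA2 (0.92) to FOXO1.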

How the data were processed

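PolyA RNA of 18 U2OS libraries was analysed from the transcript tables that the authors deposited, which hold estimated (expected) counts without normalization, TPM, and effective length (another unit, in bases), per the file headers. The estimated counts were made by the authors with kallisto. The submitters' processing notes name kallisto 0.46, CASAVA and hg38; transcript set and strandedness are not given in the sources used here, and 2 library kits are named in the labels.

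Estimated counts were summed per gene by Ensembl transcript ID (GENCODE 29) and rounded; 2.59% to 2.74% of counts had no match. edgeR 4.0.16 (R 4.3.3; TMM, filterByExpr, 1 quasi-likelihood fit of 18 libraries, 12 residual degrees of freedom) tested 9 comparisons with Benjamini-Hochberg adjustment over 16786 genes. SE is the absolute log2 fold change over the root of F; SD is over 3 libraries. The fit was tested on simulated data. Alternatives: scaling, filter, DESeq2 1.42.0, length offsets, limma 3.58.1 on log2(TPM + 1) or log2(TPM + 0.1), replicate block, left-out libraries. Members and lists were chosen with earlier results of these data known. Named were members, FLI1, up to 4 called genes per list with the largest changes, the 3 nearest profiles per member, and transcripts with at least 10% of a member's counts.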

Additional observations from a re-analysis of the deposited data

Results flagged for a closer look

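Differences between constructs whose effects over mCherry had opposite signs stood out for 2 members. CRYAB differed by 2.07 on the log2 scale between EWS-FLI1 and EWS-FLI1mut cells (adjusted p = 2.55e-14 by edgeR), being 1.62 over mCherry with EWS-FLI1 and -0.45 with EWS-FLI1mut. CRYAB also differed by 0.94 between EWS(YS37)-FLI1 and EWS-FLI1mut cells (adjusted p = 6.26e-09), with 0.49 over mCherry for EWS(YS37)-FLI1. PHLDA1 differed by 1.35 between EWS-FLI1 and EWS(YS37)-FLI1 cells (adjusted p = 2.4e-07), being 0.41 over mCherry with EWS-FLI1 and -0.94 with EWS(YS37)-FLI1. The value of 0.41 was called narrowly (adjusted p = 0.047 by edgeR). That call was lost with DESeq2, other scaling, length offsets, TPM, the replicate block and some left-out libraries.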

How the results depend on the processing

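In the order length offsets, limma on log2(TPM + 1), limma on log2(TPM + 0.1) and limma without a filter, genes called numbered 1701, 1679, 1544 and 1368 for EWS-FLI1 over mCherry (3536 in the fit reported), 360, 384, 345 and 298 for EWS-FLI1mut over mCherry (1200), and 1961, 1907, 1849 and 1632 for EWS(YS37)-FLI1 over mCherry (3645). They numbered 1262, 1276, 1122 and 978 for EWS-FLI1 over EWS-FLI1mut (2734), 3000, 2990, 2901 and 2614 for EWS-FLI1 over EWS(YS37)-FLI1 (5223), and 2570, 2735, 2584 and 2343 for EWS(YS37)-FLI1 over EWS-FLI1mut (4565). Members called were 2 in each of these 4 settings for EWS-FLI1 over mCherry (4 in the fit reported), and 2 under limma with the filter and either pseudocount for EWS-FLI1 over EWS(YS37)-FLI1 (4).

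With each replicate left out in turn, genes called for EWS-FLI1mut over mCherry ranged from 667 (without mCherry replicate 2) to 1012, and members called for EWS-FLI1 over mCherry from 3 to 5 and for EWS-FLI1 over EWS(YS37)-FLI1 from 3 to 5.

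FOXO1 against mCherry turned negative in those 4 settings: -0.31, -0.15, -0.17 and -0.15 with EWS-FLI1, -0.28, -0.07, -0.054 and -0.07 with EWS-FLI1mut, and -0.49, -0.32, -0.37 and -0.32 with EWS(YS37)-FLI1. LOX in EWS-FLI1 over EWS-FLI1mut turned to -0.001 without scaling factors and with length offsets, to -0.072, -0.074 and -0.072 under the 3 limma settings, and with a replicate left out ranged from -0.04 (without EWS-FLI1 replicate 2) to 0.153. PHLDA1 in EWS-FLI1mut over mCherry ranged from -0.107 (without mCherry replicate 1) to 0.137, and FOXO1 in EWS-FLI1 over EWS-FLI1mut from -0.17 (without EWS-FLI1 replicate 1) to 0.103 (without EWS-FLI1 replicate 3). None of the values that changed sign was called in either fit. The cause was not tested. Without scaling factors, the share of calls that were higher was 64.1% for EWS-FLI1mut over mCherry (49.3% with TMM), 42.8% for EWS(YS37)-FLI1 over mCherry (53.1%), 39.3% for EWS-FLI1 over EWS-FLI1mut (53.9%), 37.8% for EWS(YS37)-FLI1 over EWS-FLI1mut (53.3%), 32.2% at 6 h (48.7%) and 70.4% for 24 h over 6 h (51.8%).

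Over all tested genes, libraries of the same replicate number deviated little together from their group means (r from -0.04 to 0.06). An r near 0 over all genes cannot exclude a pairing that moves few of them. With the replicate number as a block, PHLDA1 in EWS-FLI1 over mCherry was not called (0.41, adjusted p = 0.0594 by edgeR), leaving 3 members called, and genes called in that comparison numbered 3579; no other member changed its call. Depth limits IGFBP3 and DKK1, whose counts of 0 allow up to 3 counts a library.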
